A study of Mus musculus with 55 samples.

Results

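The sites described here were Smc3 peaks that appeared in the livers of Setd8-LKO mice and lay apart from every CTCF peak. They were chosen by their overlaps: of the 21615 Smc3 peaks called in Setd8-LKO livers after TCPOBOP, 7805 shared no base pair with any of the 13045 Smc3 peaks of wild type (WT) livers, the 5838 CTCF peaks of WT livers or the 20905 CTCF peaks of Setd8-LKO livers. They are called gained CTCF-free sites below. The other Smc3 peaks of Setd8-LKO livers were 8623 gained sites that overlapped a CTCF peak, 4658 sites kept from WT livers that overlapped a CTCF peak and 529 kept sites that did not.

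Setd8-LKO mice (Setd8lox/lox-AlbCre) lack a functional Setd8 gene in hepatocytes, because Cre driven by the albumin promoter removes a floxed exon there, whereas the other cells of the liver retain it. Male mice of 45 to 50 days of age were used, and the Setd8-LKO mice were studied 24 h after 3 mg/kg TCPOBOP, an agonist of the nuclear receptor CAR that drives hepatocyte proliferation. The WT mice compared with them in every chromatin assay are labelled untreated, although the methods mention a vehicle, so genotype and treatment changed together and their parts cannot be told apart. Whole liver served for the ChIP of Smc3 (3 WT and 2 Setd8-LKO livers), CTCF (4 and 2) and H3K27ac (3 and 3), with 3 and 5 libraries of liver nuclei for ATAC-seq, 4 and 4 for Lamin A/C and 2 and 2 for H4K20me3. The 4 WT Lamin A/C libraries carry the replicate numbers 1 and 2 only, each on 2 libraries, so the number of WT livers behind them is not known. RNA-seq covered 5 WT untreated, 5 WT TCPOBOP and 4 Setd8-LKO TCPOBOP livers. Each chromatin assay gave 1 list of peaks or broad islands per group, so the lists carry no replicate error. Intervals given beside shares are 95% Clopper-Pearson intervals and reflect counting error alone, and the lists do not state the reads behind each sample.

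Smc3 is a subunit of cohesin, the ring-shaped complex that holds sister chromatids together after replication and extrudes loops of chromatin in interphase. CTCF is a zinc finger protein that binds a long sequence motif and halts loop extrusion, so in most mammalian tissues cohesin accumulates at CTCF sites. Cohesin is also loaded at active promoters and enhancers, where it can be detected without CTCF. H3K27ac, acetylation of histone H3 at lysine 27, marks active promoters and enhancers, ATAC-seq measures accessible DNA, and Lamin A/C and H4K20me3 mark chromatin near the nuclear lamina and heterochromatin.

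The 6 gained CTCF-free sites with the highest fold enrichment show the strong end of the class and are not typical of it. All 6 lay at promoters and overlapped H3K27ac peaks of both groups, against 59.8% and 47.1% of all members. The 201 bases around the summit of each are given here (GRCm38/mm10 reference, 5′ to 3′). Capitals mark exact matches, on either strand, to the short motifs described later and any match to the CTCF consensus with at most 1 mismatch.
Igfbp2, gained without CTCF, chr1:72824624-72824824, plus strand: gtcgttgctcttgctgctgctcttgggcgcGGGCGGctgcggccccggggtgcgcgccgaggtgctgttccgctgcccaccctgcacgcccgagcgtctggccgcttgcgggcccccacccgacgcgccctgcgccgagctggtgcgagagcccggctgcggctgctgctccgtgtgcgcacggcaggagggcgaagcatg
E2f8, gained without CTCF, chr7:48881517-48881717, plus strand: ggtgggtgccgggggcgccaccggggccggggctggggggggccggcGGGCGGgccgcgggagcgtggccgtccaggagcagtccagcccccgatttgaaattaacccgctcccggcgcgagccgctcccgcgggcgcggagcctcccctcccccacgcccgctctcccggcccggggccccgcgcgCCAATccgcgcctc
Susd1, gained without CTCF, chr4:59438237-59438437, plus strand: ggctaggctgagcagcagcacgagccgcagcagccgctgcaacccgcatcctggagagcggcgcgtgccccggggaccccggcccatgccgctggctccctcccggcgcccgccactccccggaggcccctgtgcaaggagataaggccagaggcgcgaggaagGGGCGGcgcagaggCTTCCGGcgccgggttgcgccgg
Reln, gained without CTCF, chr5:22344347-22344547, plus strand: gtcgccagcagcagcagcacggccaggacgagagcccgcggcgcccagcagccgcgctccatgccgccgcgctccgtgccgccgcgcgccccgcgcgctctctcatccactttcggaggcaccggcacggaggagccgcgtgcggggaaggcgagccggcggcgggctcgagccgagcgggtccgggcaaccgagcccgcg
Zeb2, gained without CTCF, chr2:45110014-45110214, plus strand: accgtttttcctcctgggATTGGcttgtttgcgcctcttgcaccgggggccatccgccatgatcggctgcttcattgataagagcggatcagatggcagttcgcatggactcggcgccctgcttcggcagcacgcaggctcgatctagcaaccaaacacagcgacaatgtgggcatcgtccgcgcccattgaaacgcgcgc
Mpdz, gained without CTCF, chr4:81442550-81442750, plus strand: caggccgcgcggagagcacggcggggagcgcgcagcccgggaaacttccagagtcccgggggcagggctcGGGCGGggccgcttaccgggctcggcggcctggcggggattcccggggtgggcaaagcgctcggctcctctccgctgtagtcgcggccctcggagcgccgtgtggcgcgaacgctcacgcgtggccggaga
Of these 6 windows, 4 held GGGCGG, the core of the GC box bound by SP and KLF factors, 2 held CCAAT or its complement and 1 held an ETS core. The Reln window held none of the motifs searched, and no window held the CTCF consensus. For comparison, the 2 strongest kept sites at a CTCF peak with a consensus match are shown in the same way.
Palm, kept from WT with CTCF, chr10:79793499-79793699, plus strand: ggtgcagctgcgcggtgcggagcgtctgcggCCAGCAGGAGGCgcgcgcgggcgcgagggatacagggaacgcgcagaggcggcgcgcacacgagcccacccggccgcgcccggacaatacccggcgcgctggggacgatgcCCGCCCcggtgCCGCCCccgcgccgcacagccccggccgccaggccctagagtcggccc
Cbfa2t3, kept from WT with CTCF, chr8:122678642-122678842, plus strand: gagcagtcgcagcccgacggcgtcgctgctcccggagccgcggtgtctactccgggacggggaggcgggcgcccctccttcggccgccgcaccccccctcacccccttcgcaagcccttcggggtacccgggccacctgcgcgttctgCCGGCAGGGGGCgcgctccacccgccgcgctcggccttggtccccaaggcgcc
In the Palm and Cbfa2t3 windows the longest run of capitals is the CTCF consensus. All 8 windows were GC rich, with the Zeb2 window lowest at 59.7% GC and the E2f8 window highest at 82.1%.

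The gained CTCF-free sites had the lowest median strength of the 4 classes. Because the same Smc3 calls selected them, these values are a description and carry no test. Fold enrichment, the signal at the summit over the local background as MACS2 reports it, had a median of 17.3 and lay between 5.17 and 113 (lower and upper quartiles 12.7 and 31.0). The median was 36.4 at gained sites with CTCF, 70.4 at kept sites with CTCF and 23.4 at kept sites without CTCF. The −log10 p of the peak had a median of 62.3 at gained CTCF-free sites against 180 at gained sites with CTCF and 444 at kept sites with CTCF. The sites were also short, with a median length of 481 bp against 779 and 914 bp, and 677 of them (8.67%) exceeded 1000 bp. Together they covered 4.53 Mb. In the WT list the median fold enrichment of all Smc3 peaks was 13.0 and the highest 47.1, and the lists were called separately, so these levels are not on 1 scale.

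**Figure D1:**
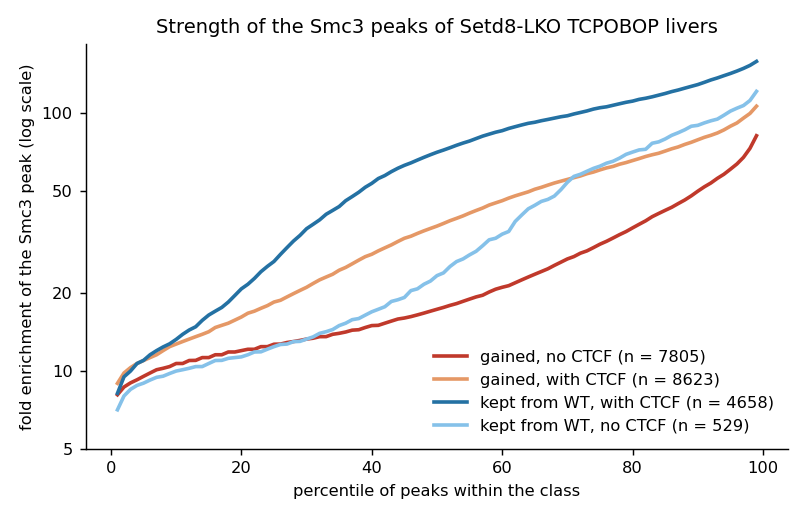
Fold enrichment of the Smc3 peaks of Setd8-LKO TCPOBOP livers (log scale) against the percentile of peaks within each class, from the 1st to the 99th percentile. The line of gained CTCF-free sites lies lowest over most of the range, with a median of 17.3, and the line of kept sites with CTCF lies highest over most of it, with a median of 70.4.

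The strongest members lay at promoters. The site with the highest fold enrichment (113) spanned 1245 bp at chr1:72824377-72825621, with its summit 221 bp downstream of the transcript start of Igfbp2, which encodes an insulin-like growth factor binding protein. A site of equal enrichment spanned 1515 bp at chr7:48880676-48882190, with its summit 21 bp upstream of E2f8, an atypical E2F repressor of the cell cycle. Next came the promoters of Susd1 (fold enrichment 113), Reln (107), which encodes the extracellular matrix protein reelin, Zeb2 (104), a zinc finger repressor, and Mpdz (104), a PDZ domain scaffold. Of the 10 sites with the highest fold enrichment, 9 were at promoters and 1, at chr2:30711456-30712692, was intergenic, 5081 bp from the nearest annotated start. All 10 overlapped an H3K27ac peak in both groups. An ATAC peak of Setd8-LKO livers overlapped 2 of the 10, those at E2f8 and Prdm10.

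The 5 longest sites ran from 2505 to 3458 bp. The longest, at chr11:82930036-82933493, had its summit within Unc45b and 950 bp from the start of the overlapping transcript Unc45bos, and the next, at chr2:153527657-153530426, in an intron of Nol4l. The others lay near Tmem200b, in an exon of Itpkb and in an intron of Bcor, which encodes a corepressor of the polycomb system. All 5 overlapped H3K27ac peaks of both groups and none overlapped an ATAC peak. At the other end, the 5 sites with the lowest −log10 p (13.6 to 16.4) had fold enrichments of 5.17 to 7.52 and lengths of 300 to 462 bp. They lay in promoters of Rgs3 and Prkcz, in introns of Fndc3b and Ptpn14 and near Gbx2, and none overlapped an H3K27ac or ATAC peak in either group.

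Few sites lay near the limit of the rule. The member closest to a peak of the other lists, at chr2:22623439-22624014, was separated from it by 4 bp and had a fold enrichment of 11.8, and the left-out site with the smallest overlap, at chr15:99427016-99427326, shared 2 bp and had a fold enrichment of 7.50. Within a gap of 100 bp of any peak of the 3 excluding lists lay 36 members (0.461%), and within 500 bp 371 (4.75%). Only 5 left-out Smc3 peaks (0.0362%) were left out by an overlap of at most 10 bp. The median distance of the members to the nearest CTCF peak of Setd8-LKO livers was 17668 bp.

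Transcript starts were the main address of the sites. A promoter is used here as a summit within 1000 bp of any GENCODE M21 transcript start, and 4668 of 7805 members met it (59.8%, interval 58.7 to 60.9%). A further 743 (9.52%) had the summit in an exon, 1277 (16.4%) in an intron and 1117 (14.3%) between genes. The promoter share was 72.6% at gained sites with CTCF, 64.2% at kept sites with CTCF and 52.6% at kept sites without CTCF. Among WT Smc3 peaks without CTCF that had no counterpart in Setd8-LKO livers (4471 peaks), it was 10.8%. At promoters the summits fell downstream more often than upstream: 3189 lay downstream and 1443 upstream of the nearest start, with a median position 55 bp downstream. The promoter members were stronger than the 3137 distal ones, with median fold enrichments of 23.7 and 13.6.

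**Figure D2:**
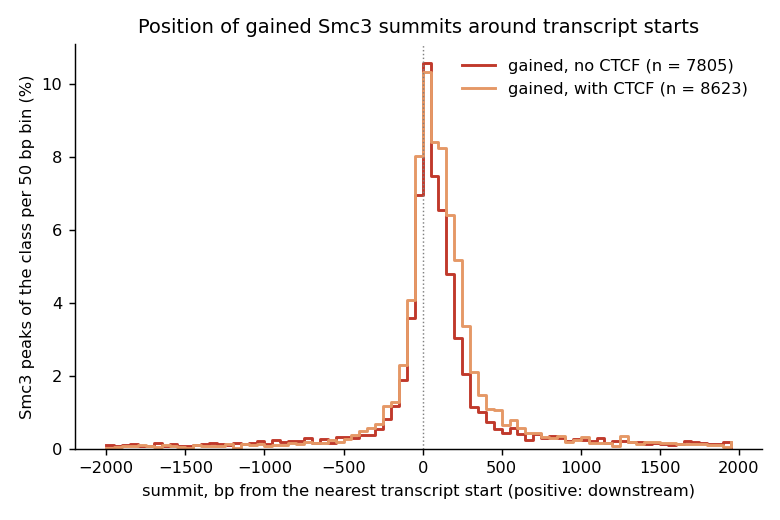
Position of the summits of gained Smc3 sites relative to the nearest transcript start, in bins of 50 bp, for sites without CTCF and with CTCF, as a percentage of all sites of the class. Both distributions peak just downstream of the start, where 18.1% of the gained CTCF-free sites lie within 100 bp downstream of it.

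The sites were rich in CG dinucleotides, as were gained and kept sites with CTCF, and few held the CTCF consensus. The median GC content of the 201 bases around the summit was 66.2%, against 47.3% in windows moved by 2000 bp and 54.2% in the 201 bases that end the RefSeq promoter windows (300 bases each, GRCm38). At gained and kept sites with CTCF the median GC content was 69.7% and 67.7%. The ratio of observed to expected CpG had a median of 0.75, with 0.82 and 0.77 at gained and kept sites with CTCF and 0.21 at the WT Smc3 peaks without CTCF that were lost. The CTCF consensus, with at most 1 mismatch on either strand, occurred in 3.95% of the windows (interval 3.53 to 4.40%), in 3.00% of the moved windows, in 3.22% of the RefSeq promoter windows, in 6.01% of gained sites with CTCF and in 31.4% of kept sites with CTCF. In the lost WT Smc3 peaks without CTCF it occurred in 64.0%, although no CTCF peak was called there in either group. The consensus was more frequent there than at kept sites with CTCF, so these lost peaks are without CTCF only by the peak calls. The gained CTCF-free sites thus differed from the lost peaks in their sequence as well as in their position.

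Among the other motifs searched, the GC box was the most frequent at the members. GGGCGG stood in 43.9% of the member windows, as in the Igfbp2, E2f8, Susd1 and Mpdz windows shown above, in 5.10% of the moved windows and in 32.2% of the RefSeq promoter windows. It was as frequent or more so at gained (51.5%) and kept (45.9%) sites with CTCF. At promoter members it was 55.6% and at distal members 26.5%. CCAAT, the NFY motif, stood in 13.4% of the members and was more frequent in the moved windows (24.3%) and the RefSeq promoters (28.6%). The ETS core CCGGAAG stood in 5.60% of the members, 1.23% of the moved windows and 7.55% of the RefSeq promoters, and the YY1 motif AAGATGGCG in 1.85%, 0.13% and 1.19%. The E-box CACGTG (5.95%), the NRF1 motif GCGCATGC (1.64%) and the CRE TGACGTCA (0.81%) were likewise more frequent than in the moved windows (2.82%, 0.36% and 0.23%). The AP-1 motif TGANTCA stood in 2.40% and the STAT motif TTCNNNGAA in 2.40% of the members, against 5.46% and 5.87% in the moved windows. Exact matches to motifs of liver factors were rare at the members and in both comparison sets. FOXA TGTTTAC stood in 1.09% and HNF4 CAAAGTCCA in 0.15% of the members, below the 2.51% and 0.46% of the moved windows. C/EBP TTGCGCAA stood in 0.18%, above the 0.03% of the moved windows. The RefSeq promoters held CACGTG in 5.47%, GCGCATGC in 2.30%, TGACGTCA in 1.61%, TGANTCA in 5.39%, TTCNNNGAA in 5.45%, TGTTTAC in 2.31%, TTGCGCAA in 0.13% and CAAAGTCCA in 0.36% of their windows. Each motif was counted by itself, so overlapping matches count for each, and the windows differ in GC content. No further test was run on these letters.

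H3K27ac covered most of the sites, and more of them in Setd8-LKO than in WT livers. Of the members, 4730 (60.6%, interval 59.5 to 61.7%) overlapped an H3K27ac peak of Setd8-LKO livers and 3812 (48.8%, interval 47.7 to 50.0%) one of WT livers, while the 2 lists were of like size (27752 and 27983 peaks). At 3678 sites both lists had a peak, at 1052 (13.5%) the Setd8-LKO list alone, at 134 (1.72%) the WT list alone and at 2941 (37.7%) neither. Gained sites with CTCF showed a like pattern (76.2% and 62.0%), whereas sites kept with CTCF did not differ in this way (65.4% and 63.4%). Where both lists had a peak, the acetylation peaks were of like strength, with median fold enrichments of 26.8 in Setd8-LKO and 26.6 in WT livers, and 1831 of the 3678 were higher in Setd8-LKO. The acetylation peaks found at members in Setd8-LKO livers alone were weaker, with a median of 9.50 against 11.5 over the whole list.

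Accessible DNA was less often detected. An ATAC peak of Setd8-LKO livers overlapped 2107 members (26.996%) and one of WT livers 2460 (31.5%), with 448 members having a WT peak alone and 95 a Setd8-LKO peak alone. The whole lists differed in size in the same direction, with 23386 peaks in Setd8-LKO and 27307 in WT livers. At kept sites with CTCF the shares were 42.9% and 53.7%, and at gained sites with CTCF 29.3% and 36.1%. With the summit of the member required to lie inside the ATAC peak, the shares at the members fell to 12.1% and 17.5%. Where both groups had an ATAC peak at a member (2012 sites), its median fold enrichment was 6.998 in Setd8-LKO and 7.63 in WT livers. H3K27ac without an ATAC peak in Setd8-LKO livers was found at 2825 members (36.2%), and 2736 (35.1%) overlapped neither mark in either group. Over all Smc3 peaks of Setd8-LKO livers these shares were 39.2% and 27.2%, and at gained sites with CTCF 47.7% and 22.0%.

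**Figure D3:**
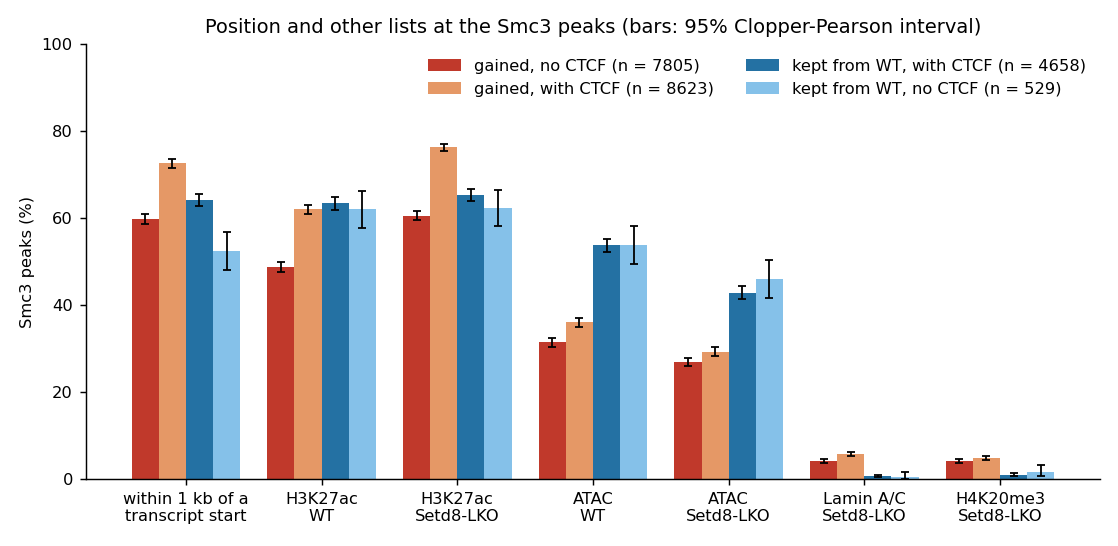
Percentage of Smc3 peaks of each class within 1 kb of a transcript start or overlapping a peak or island of the other assays, with 95% Clopper-Pearson intervals as error bars. The gained CTCF-free sites overlap H3K27ac in 60.6% of cases in Setd8-LKO and 48.8% in WT livers, and ATAC peaks in 26.996% and 31.5%.

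Overlap with lamina and heterochromatin islands was low, above that of the kept sites and below that of gained sites with CTCF. Lamin A/C islands of Setd8-LKO livers overlapped 333 members (4.27%, interval 3.83 to 4.74%) against 0.82% of kept and 5.83% of gained sites with CTCF. H4K20me3 islands of Setd8-LKO livers overlapped 331 members (4.24%, interval 3.80 to 4.71%) against 1.03% and 4.93%. In the WT lists the shares at the members were 5.82% for Lamin A/C and 3.95% for H4K20me3, so these regions were largely islands in WT livers too: 311 of the 333 members in a Setd8-LKO Lamin A/C island also overlapped a WT one. The intergenic members held the largest share of H4K20me3, 12.2%, against 3.02% at promoter members.

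How strongly Smc3 was enriched went with what else was present. The members were ranked by −log10 p and cut into 4 bins of like size. In the lowest bin, 34.7% lay at a promoter, 23.7% overlapped H3K27ac in Setd8-LKO and 16.2% in WT livers. In the highest bin the shares were 90.4%, 96.9% and 92.2%. The bins also allow the classes to be set side by side at like −log10 p, since classes differ in strength. In the third bin (−log10 p from 62.3 to 143), 67.3% of the members were at promoters (interval 65.2 to 69.4%) against 62.4% of gained sites with CTCF and 28.4% of kept sites with CTCF. H3K27ac of WT livers in that bin overlapped 58.6% of the members (interval 56.4 to 60.8%), 42.7% of gained sites with CTCF (interval 40.4 to 45.1%) and 18.2% of kept sites with CTCF, and 59.6% of the 94 kept sites without CTCF (interval 49.0 to 69.6%). At like strength, then, the members overlapped WT H3K27ac more often than gained sites with CTCF, the reverse of the order over all sites.

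**Figure D4:**
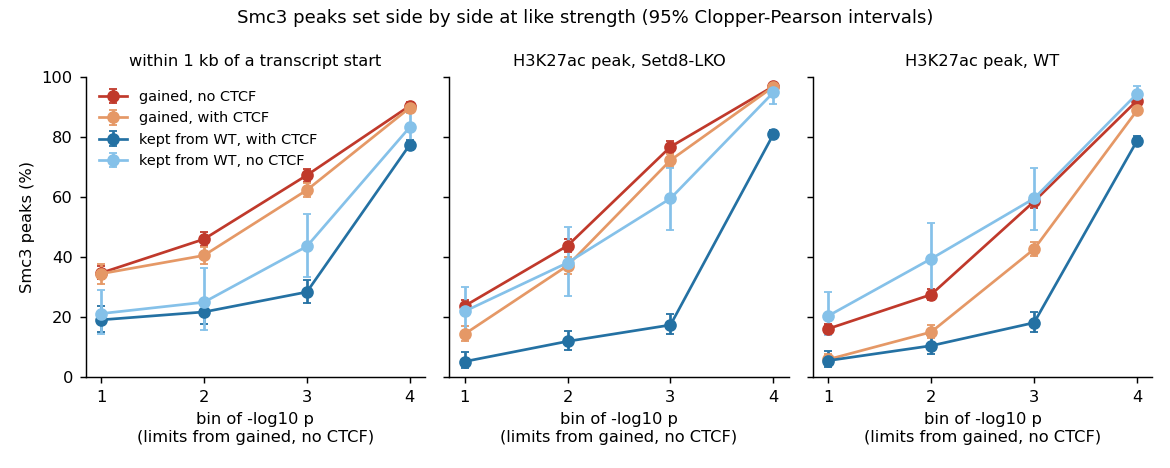
Percentage of Smc3 peaks at a promoter (left), at an H3K27ac peak of Setd8-LKO livers (middle) and at an H3K27ac peak of WT livers (right) by bin of −log10 p, with 95% Clopper-Pearson intervals. The limits of the bins come from the gained CTCF-free sites, which rise from 34.7% to 90.4% in the left panel.

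The X chromosome stood apart. Of its 430 Smc3 peaks in Setd8-LKO livers, 306 were gained CTCF-free sites (71.2%, interval 66.6 to 75.4%), while on the other chromosomes the share lay between 32.2 and 37.6%. The excluding lists were sparse on the X: it held 0.675% of WT Smc3 peaks, 0.360% of WT CTCF peaks and 0.718% of Setd8-LKO CTCF peaks, against 1.99% of Setd8-LKO Smc3 peaks. H3K27ac peaks on the X made up 1.56% of the Setd8-LKO and 1.67% of the WT list. The X members were mostly at promoters (79.7%, interval 74.8 to 84.1%) and had a median fold enrichment of 19.4. Only male mice are named in the methods, and the part of library or depth in the X counts was not tested. Among the chromosomes with Smc3 peaks of Setd8-LKO livers, chromosome 11 held the most members per megabase, 4.87, and the X the fewest, 1.79.

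Through their promoters the sites touched 5418 annotated genes, 4385 of them protein-coding, which is 20.0% of the 21951 protein-coding genes. For 3580 of these no other class of Smc3 peak lay at the promoter. Gene lists chosen with earlier results of these data known were set beside that share. Among genes of the G2 and M phases, 10 of 16 had a member at the promoter (62.5%, interval 35.4 to 84.8%), with Cdc20, an activator of the anaphase-promoting complex, Ttk, a spindle checkpoint kinase, and Mki67, which encodes the proliferation marker Ki-67, holding the strongest. The DNA replication list had 7 of 17 (41.2%, interval 18.4 to 67.1%), led by Mcm3 and Mcm4 of the replicative helicase and Gins1. Of the p53 targets, 7 of 16 (43.8%, interval 19.8 to 70.1%) had one, and of the ribosomal protein genes 25 of 88 (28.4%, interval 19.3 to 39.0%), led by Rpl9, Rpl29 and Rpl31. Gained sites with CTCF lay at the promoters of 28.0% of all protein-coding genes. In these lists they lay at 3 of 16 G2 and M phase genes and 9 of 17 replication genes. They also lay at 5 of 16 p53 targets and 31 of 88 ribosomal protein genes. An Smc3 peak of Setd8-LKO livers of any class lay at the promoters of 57.4% of all protein-coding genes. Such a peak was missing at only 2 of 16 G2 and M phase genes, 1 of 17 replication genes and 1 of 16 p53 targets. It was missing at 22 of 88 ribosomal protein genes. Expression level was not matched between the lists and all genes.

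For lists tied to cell identity the counts were small, and the interval of each included the 20.0% of all protein-coding genes. One hepatocyte marker of 15 had a member, Hnf4a, a nuclear receptor that maintains hepatocyte identity, and 11 of the 15 had no Smc3 peak of Setd8-LKO livers at the promoter. Markers of other liver cells had 2 of 13 (biliary and progenitor, Krt7 among them), 2 of 14 (macrophage, Cd14 and Spi1), 1 of 10 (stellate, Reln), 1 of 9 (endothelial, Kdr), 1 of 11 (lymphocyte, Lck) and 0 of 8 (neutrophil, upper limit 36.9%). The AP-1 and immediate early genes had 2 of 14, Fos and Ier3, and 10 of these 14, Fos among them, had a kept site at the promoter. The cytoskeleton and lamina list had 4 of 18 (Tubb5, Tuba1b and Flna with the strongest sites), the CAR targets 1 of 10 (Por, the electron donor of cytochrome P450 enzymes) and the interferon-induced genes 1 of 13 (Stat2). Of the cohesin and CTCF genes themselves, 3 of 18 had one: Mau2, a subunit of the cohesin loader, Espl1, the separase that opens the ring in anaphase, and Smc1a, the partner of Smc3.

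RNA-seq is independent of the rule that chose the sites, but its tables list only genes that the authors selected as changed, 3900 in the comparison of Setd8-LKO TCPOBOP and 719 in that of WT TCPOBOP, with the same 5 WT untreated livers as controls. Raw counts over the listed genes summed to 5734065 to 8231255 in Setd8-LKO and 11238950 to 12780869 in WT untreated libraries. These sums cover part of each library and are not its depth. The methods call the RNA samples biological replicates, and p-values measure the spread between them. In whole liver RNA, fewer cells of a type and less RNA per cell cannot be told apart. Kmt5a, the gene of Setd8, had 613, 567, 761, 563 and 715 normalized counts in WT untreated livers and 1341, 1465, 1338 and 1313 in those labelled Setd8-LKO. Its count was thus higher in the libraries labelled as knockout (log2 fold change 1.08, SE 0.14, edgeR adjusted p = 4.52e-04). Under the DESeq2 scaling over the listed genes its log2 fold change was 0.28 and not past the threshold. Counts over the whole gene do not show whether the floxed exon is present.

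Genes with a member at the promoter changed about as often as the other listed genes, with more of them higher. Of 822 listed genes with a member 783 could be tested, and 461 were higher and 225 lower in Setd8-LKO TCPOBOP livers at an edgeR adjusted p under 0.05 with a log2 fold change of 1 or more in either direction. That is 87.6%, against 85.1% of all 3726 tested genes, of which 50.5% were higher and 34.6% lower. Higher genes made up 67.2% of the called genes with a member and 59.3% of all called genes. Among listed genes with a gained CTCF site and no member, 87.5% of those tested were called, and 71.1% of the called genes were higher. When DESeq2 estimated the scaling from the listed genes themselves, log2 fold changes shifted by a median of -0.81, and the split became 218 higher and 246 lower, or 47.0% higher, while all listed genes had 868 higher and 1493 lower under that scaling. That scaling takes most genes in the fit as unchanged, although the listed genes were selected as changed, so it cannot decide the direction of the split. Over the whole annotation, 9.69% of the protein-coding genes with a member were listed and higher (interval 8.83 to 10.6%), 9.11% of those with a gained CTCF site and no member, 6.88% of those with kept sites only and 4.40% of those with no Smc3 peak of Setd8-LKO livers (interval 3.99 to 4.83%). The shares listed and lower were 4.33%, 3.75%, 6.91% and 3.96%. Over all protein-coding genes, 6.95% were listed and higher and 4.33% listed and lower. Expression level was not matched between these groups.

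The RNA of genes with a member was also read against acetylation at that member. Where the Setd8-LKO list alone had an H3K27ac peak at the member, 60 genes were higher and 6 lower of 82 tested, with a median log2 fold change of 2.08. Where both lists had one, 331 were higher and 178 lower of 571, with a median of 1.26. The DESeq2 scaling gave 42 higher and 6 lower for the former and 135 higher and 192 lower for the latter. Where the WT list alone had one, 6 were higher and 9 lower of 15. Where neither list had one, 64 were higher and 32 lower of 115, with a median of 1.34. No test of the difference between these groups was made. Listed genes without a member were not split by H3K27ac, so these counts do not show whether the splits are particular to the members.

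The listed genes with the strongest members went in both directions. Rcl1, which takes part in ribosomal RNA processing, had 2596, 2807, 2877, 2615 and 2476 normalized counts in WT untreated livers and 1147, 1110, 1407 and 1405 in Setd8-LKO livers, so the groups did not overlap (log2 fold change -1.08, SE 0.14, adjusted p = 4.94e-04). Slc19a2, a thiamine transporter, fell as well, with all 4 Setd8-LKO libraries (919 to 1130) below all WT untreated libraries (1951 to 3161). Sesn2, a stress-induced p53 target, rose: its counts were 124, 108, 108, 110 and 115 in WT untreated and 406, 358, 489 and 442 in Setd8-LKO livers (log2 fold change 1.90, SE 0.15). Pdp1, a pyruvate dehydrogenase phosphatase, rose from 15 to 27 counts to 82 to 100 counts (log2 fold change 2.11). Slc16a6, a monocarboxylate transporter family member, and Arhgef40 rose by 1.45 and 1.11 on the log2 scale in the edgeR fit, and neither passed the threshold under the DESeq2 scaling (0.69 and 0.29).

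Gm2788, Jarid2 and Xylt1 carried strong members and did not pass the edgeR test. The Jarid2 promoter also held a kept site. Gm2788 passed as lower under DESeq2 (log2 fold change -1.78, adjusted p = 0.0272), and Xylt1 as higher when edgeR p-values were adjusted over the listed genes alone (adjusted p = 0.0170). Gm2788, a transcript that shares its promoter with E2f8, had 208 to 1320 counts in WT untreated and 177 to 546 in Setd8-LKO livers, and the groups overlapped. Jarid2, a subunit of polycomb repressive complex 2, followed the sequencing run named in the column headers: in run A it had 19949, 18445 and 13118 counts in WT untreated livers and 11641 in the Setd8-LKO liver, and in run B 938 and 1727 against 1459, 816 and 927. Within runs its log2 difference between groups was -0.56 and -0.32. Xylt1 had 4 to 15 counts in WT untreated and 10 to 33 in Setd8-LKO livers.

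Cell cycle genes with a member rose together. All 10 G2 and M phase genes with a member were listed and called higher, as were the other 6 of that list, and 9 of the 10 passed under the DESeq2 scaling. Cdc20 had 10, 14, 16, 10 and 29 normalized counts in WT untreated livers and 507, 442, 754 and 524 in Setd8-LKO livers (log2 fold change 5.13, SE 0.33, adjusted p = 7.40e-06). In WT TCPOBOP livers Cdc20 had 56, 15, 33, 109 and 50 counts, which overlap those of the untreated livers, and it was not called. Ttk had 1 to 10 counts in WT untreated and 97 to 119 in Setd8-LKO livers (log2 fold change 4.38), and Mki67 had 19, 13, 26, 16 and 64 against 604, 707, 495 and 189 (log2 fold change 4.17). Espl1, the separase gene of the cohesin list, had 5 to 15 counts in WT untreated and 90 to 156 in Setd8-LKO livers (log2 fold change 3.82). Within runs A and B the log2 difference was 4.80 and 5.51 for Cdc20 and 3.70 and 5.77 for Ttk. It was 2.40 and 5.19 for Mki67 and 3.15 and 4.22 for Espl1. Replicate 4 was the only Setd8-LKO library of run A.

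The replication and p53 lists showed the same direction. Mcm3 had 69, 79, 78, 100 and 98 counts in WT untreated, 254, 424, 148 and 336 in Setd8-LKO and 221, 114, 228, 328 and 231 in WT TCPOBOP livers, and it was called higher in both comparisons (log2 fold changes 1.78 and 1.40). Mcm4 rose by 1.76 on the log2 scale in Setd8-LKO livers (adjusted p = 0.0137), and without Setd8-LKO replicate 2 its adjusted p was 0.0552. Of 7 replication genes with a member 5 were listed, and all 5 were called higher, 2 of them also under the DESeq2 scaling. Over the whole replication list, with or without a member, 9 of 10 listed genes were called higher. Gdf15, a secreted stress cytokine and p53 target, had 67 to 167 counts in WT untreated, 2081 to 3791 in Setd8-LKO and 1271 to 2057 in WT TCPOBOP livers (log2 fold changes 4.66 and 3.92). All 5 listed p53 targets with a member, Ccng1, Pmaip1, Sesn2, Gdf15 and Aen, were called higher, 2 of them also under the DESeq2 scaling. All 10 listed genes of the p53 list were called higher, with or without a member.

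**Figure D5:**
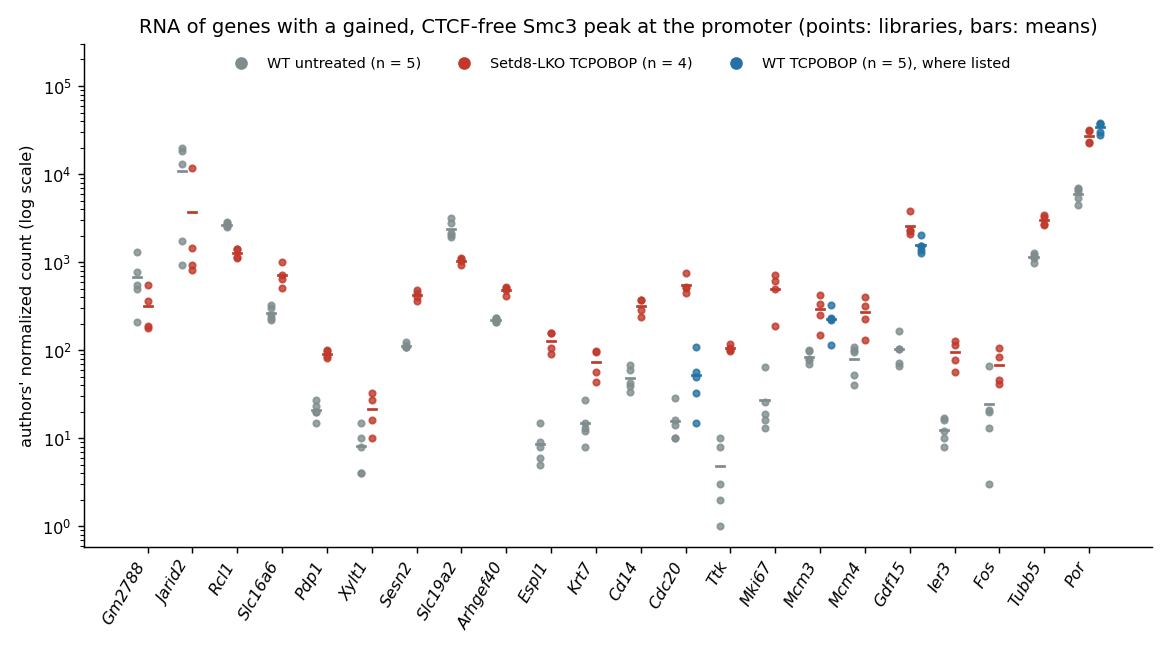
Normalized counts (log scale) of the genes described here that have a gained CTCF-free Smc3 site at the promoter, for each library of WT untreated, Setd8-LKO TCPOBOP and, where listed, WT TCPOBOP livers, with bars at the means. Cdc20, Gdf15, Espl1 and Ttk show the widest separation, and Jarid2 spreads by sequencing run in both groups.

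Single genes of the remaining lists followed. Krt7, a keratin of bile duct cells, had 8 to 27 counts in WT untreated and 44 to 99 in Setd8-LKO livers (log2 fold change 2.30). Cd14, a coreceptor for bacterial lipopolysaccharide on macrophages, had 34 to 68 against 238 to 374 (log2 fold change 2.69). The summed counts of the listed markers of these cells moved too: 10 of 13 biliary and progenitor markers were listed, 8 of them higher, and their sum was 563 to 787 in WT untreated and 2166 to 9310 in Setd8-LKO livers. For 3 listed macrophage markers of 14 the sum was 122 to 358 against 682 to 1006, for 5 listed stellate markers of 10 it was 2273 to 3474 against 5873 to 13697, and for 10 listed hepatocyte markers of 15 it fell from 1471977 to 2231888 to 739216 to 955784. The 2 listed neutrophil markers (6 to 100 against 71 to 121 in sum) did not pass the test. No endothelial marker was listed, and the part of cell composition in the RNA values was not tested. Por, the CAR target with a member, had 4448 to 6942 counts in WT untreated, 22615 to 31614 in Setd8-LKO and 27977 to 38268 in WT TCPOBOP livers. Its promoter also held a gained site with CTCF. Ier3 rose from 8 to 17 counts to 57 to 129, Tubb5 from 979 to 1272 to 2631 to 3435, and Fos, with 3 to 66 against 41 to 105 counts, did not pass the test. None of the 25 ribosomal protein genes with a member was listed.

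The other listed genes of the cohesin list had no member at the promoter. Esco2, the acetyltransferase that makes cohesion in S phase stable, had 11 to 33 counts in WT untreated and 221 to 356 in Setd8-LKO livers, Cdca5, which encodes sororin, had 1 to 9 against 46 to 90, and Sgo1, the shugoshin that guards centromeric cohesin, had 1 to 8 against 39 to 66, all called higher. Pttg1, which encodes securin, the inhibitor of separase, was called lower, with 331 to 423 against 113 to 223 counts (log2 fold change -1.14, edgeR adjusted p = 0.00454).

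TCPOBOP in WT livers came with fewer listed genes, 719 against 3900 in the Setd8-LKO comparison. Of these, 145 and 822 had a member, so the smaller number of member genes went with the shorter list. Of 145 listed genes with a member 138 could be tested, and 74 were higher and 29 lower, or 74.6%, against 67.6% of the 679 genes tested in that table (51.4% higher and 16.2% lower). Both comparisons share the WT untreated libraries, so their overlap was not evaluated. TMM or DESeq2 scaling over the listed genes moved the log2 fold changes of this table by medians of -0.96 and -1.17 and turned the split of the genes with a member to 16 higher and 36 lower under TMM and 16 higher and 41 lower under DESeq2. Over all genes of the table it became 74 higher and 187 lower, and 89 higher and 212 lower. Both scalings take most genes in the fit as unchanged. The listed genes were selected as changed, with a median log2 fold change of 1.34 under the authors' factors. These 2 scalings therefore cannot decide the direction of the split.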

How the data were processed

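ChIP-seq of Smc3, CTCF and H3K27ac, ATAC-seq, CUT&Tag of Lamin A/C and H4K20me3, and RNA-seq were analysed from 55 mouse liver samples, grouped by their labels. The submitters' processing notes name Trimmomatic 0.39, HISAT2, MACS2 2.2.7.1, SICER and deepTools 3.3.2. The authors aligned reads to mm10, reduced ChIP-seq and CUT&Tag reads in proportion to the smallest sample and called 1 list per group. How replicates were pooled is not given in the sources used here. Peaks were deposited with the fold enrichment and −log10 p that MACS2 gave them, and islands with their SICER score.

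For RNA-seq the authors deposited raw counts and normalized counts of the genes they had selected as changed. The deposited normalized count equals the raw count times 1 factor per library to within 0.0634%. The authors' fold changes, p-values and FDR, and 114 other per-sample columns, were not used.

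The members, gene lists and motifs were chosen with earlier results of these data known. Peaks sharing 1 bp or more counted as overlapping. Promoters were taken from GENCODE M21, in which 3888 of 3900 and 716 of 719 listed genes were found. Letters were read from GRCm38 with pysam 0.24.0, within 100 bp of each summit, and 5 members had no window. The RefSeq table held 32851 promoters. The test on raw counts was that of edgeR 4.0.16 under R 4.3.3 (quasi-likelihood, filterByExpr with a minimum count of 10, the authors' factors as scaling). P-values were adjusted by Benjamini-Hochberg over the 55450 annotated genes, because unlisted genes were tested upstream. A gene was called at an adjusted p under 0.05 with a log2 fold change of 1 or more in either direction. DESeq2 1.42.0 served as an alternative, and the test was tested on simulated data. Pairs of replicates differed by more than sampling noise (lowest chi-square 24.2 per gene). S6 kinase genes were left out of the ribosomal protein list.

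Sites named are the 10 with the highest fold enrichment, the 5 longest and the 5 with the lowest −log10 p. Genes named are the 10 listed and tested genes with the strongest promoter member, up to 3 genes of each list with the strongest members, Kmt5a, and the listed cohesin genes. Some of the genes that these rules name are not reported here. Alternatives covered the list size, the overlap, the promoter distance, the motif search, the scaling, the filter, the run, the replicate number and each library left out.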

Additional observations from a re-analysis of the deposited data

Results flagged for a closer look

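Among 61 groups of libraries of the named genes, 7 held a library that stood apart from the others by Dixon's criterion, and chance flags about 1 in 20 groups. In Setd8-LKO livers, replicate 4 had 11641 normalized counts of Jarid2, against at most 1459 in the others, and it is the only Setd8-LKO library of run A. Replicate 4 also had the lowest count of Sgo1, 39 against 64 to 66. Gdf15 reached 3791 in Setd8-LKO replicate 3, against at most 2318. In WT untreated livers, replicate 5 had 64 counts of Mki67 against at most 26. Replicate 3 had 66 counts of Fos against at most 21, and 8 counts of Sgo1 against at most 3. Replicate 2 had 423 counts of Pttg1 against at most 346.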

How the results depend on the processing

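Of 47 regional values under an alternative, 28 stayed within their counting interval or the same count and 19 moved. With as many of the strongest Setd8-LKO Smc3 peaks as the WT list holds, 3062 members remained, with a median fold enrichment of 36.2. Their shares were 84.7% at promoters, 44.3% and 53.2% at ATAC peaks of Setd8-LKO and WT livers, 92.4% and 83.6% at H3K27ac peaks, 2.25% in Lamin A/C islands and 1.47% in H4K20me3 islands of Setd8-LKO livers. A promoter distance of 500 or 2500 bp gave 54.2% or 68.3%. With the summit inside the other peak, the shares were 12.1% and 17.5% for ATAC and 58.5% and 46.6% for H3K27ac. The CTCF consensus stood in 0.50% with 0 mismatches, 26.7% with 2 mismatches, and 2.09% or 8.28% in windows of 50 or 250 bp on each side. For RNA of genes with a member in Setd8-LKO livers, DESeq2 called 218 higher and 246 lower, and leaving out 1 library gave 400 to 482 higher and 196 to 215 lower. Replicate numbers did not pair the samples (correlations of deviations -0.0076, -0.11, -0.15 and 0.07 for numbers 1 to 4), and with the replicate block 317 were higher and 169 lower. The alternatives for WT TCPOBOP were chosen after seeing the data. There the split turned to 16 higher and 36 lower under TMM and 16 higher and 41 lower under DESeq2, both scaled over genes selected as changed. The replicate block gave 25 higher and 4 lower, and leaving out 1 library 54 to 67 higher and 16 to 23 lower. The lower count was 19 and 17 without WT untreated replicates 2 and 3, and 16, 18, 16 and 16 without WT TCPOBOP replicates 2, 3, 4 and 5. Of 420 values of 28 named genes under an alternative, 407 kept direction and side of the threshold, 9 lost the call (among them Mcm3, Tubb5 and Kmt5a under DESeq2, and Mcm4 and Pttg1 under the replicate block), 4 gained it (Gm2788 under DESeq2, Xylt1 and Fos when adjusted over the listed genes alone, Fos also without WT untreated replicate 3) and 0 reversed. The cause of these changes was not tested. The lists do not state the reads behind each sample, so their precision cannot be given.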

Other observations

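Besides protein-coding genes, the promoters with a gained CTCF-free site belonged to 296 antisense, 193 lincRNA, 92 miRNA and 25 snoRNA genes of the annotation. Some of the sites lay close together: 590 of 7805 (7.56%) had another such site within 1000 bp, and 1941 (24.9%) within 10000 bp, with a median gap of 40155 bp between neighbouring sites.

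Among the 333 sites in a Lamin A/C island of Setd8-LKO livers, 121 (36.3%) also overlapped an H4K20me3 island of Setd8-LKO livers. H3K27ac peaks of Setd8-LKO livers overlapped 134 of the 333 (40.2%, interval 34.9 to 45.7%) and those of WT livers 52 (15.6%, interval 11.9 to 20.0%).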
